A study of Homo sapiens with 4 samples.

Results

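The genes of the integrin chains and of the core adaptors that couple integrins to the actin cytoskeleton were examined in ES2 cells treated with Liq. The 33 genes were taken by symbol from the 23228 genes of the count tables, 25 of them for integrin α and β chains and 8 for adaptors. ES2 is a human line of ovarian cancer cells in long use, and liquiritigenin (Liq) is a plant flavanone used in the study as an ERβ agonist. Total RNA was sequenced after 24 h in phenol red-free medium with charcoal-stripped serum, from 2 samples that received vehicle and 2 that received 100 μM Liq, the dose being that of the study's methods. The labels do not say whether the 2 samples of a group came from separate cultures, so the p-values measure the spread between these samples, which may be technical.

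Integrins are αβ heterodimers that span the plasma membrane and bind matrix proteins or receptors on other cells. The α chain largely sets the ligand, and the short β tail recruits talin and kindlin, which together switch the receptor to its high-affinity state. Integrin-linked kinase (ILK), paxillin (PXN) and focal adhesion kinase (PTK2, FAK) then assemble on the bound receptor and link it to actin and to kinase signaling. In ovarian cancer, integrins are known for their part in the attachment of tumor cells to the mesothelium and matrix of the peritoneum.

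Each sample had between 34573053 and 48933893 reads on genes, and 3 counts corresponded to 0.0598 to 0.0843 CPM (counts per 1000000 reads on genes, TMM-normalized). Of 9 markers of ovarian and Müllerian epithelium, 5 passed the filter on low counts, among them PAX8, WT1, KRT7, KRT8 and KRT18. Of these, PAX8, WT1 and KRT18 fell (log2 fold changes of -1.34, -0.68 and -0.24) and KRT7 rose (0.51), and the summed level of the 9 was 458 to 500 CPM in vehicle and 531 to 577 CPM in Liq. CDH1 (E-cadherin) had 0 counts in all 4 samples, and MUC16 and EPCAM had at most 3 counts in any sample. Of 9 leukocyte markers, 4 had 0 counts in all 4 samples, and PTPRC (CD45) had 1 count in 1 Liq sample. The 5 endothelial markers summed to 53.2 to 55.9 CPM in vehicle and 46.1 to 49.6 CPM in Liq, nearly all of it CDH5, which was not called. KDR fell (log2 fold change -0.79), and PECAM1, VWF and TEK, at 10 counts or fewer, were not tested. These 3 lay lower in Liq without overlap, and 61.7% of all tested genes also lacked overlap, in either direction. The part of any shift in cell type markers in the results was not tested. The gene of ERβ, ESR2, had 4, 7, 5 and 14 counts in vehicle replicates 1 and 2 and Liq replicates 1 and 2 and was not tested, and that of ERα, ESR1, had 22, 17, 19 and 34 counts, with an adjusted p = 0.5539 (edgeR). No sample stood apart from its group, and the samples of a group differed from each other by more than sampling noise.

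Liq treatment upregulated 6 and downregulated 6 of the 27 members that passed the filter on low counts (edgeR's quasi-likelihood test, Benjamini-Hochberg adjusted p under 0.05 over all 13546 tested genes, n = 2 per group). The upregulated genes were ITGB3, ITGA2B, ITGB5, ITGB1, ITGA4 and TLN2, and the downregulated genes were FERMT3, FERMT1, FERMT2, ITGA10, ITGB8 and ITGA6. Each direction thus held 22.2% of the tested members, against 12.6% of all tested genes called higher and 11.3% called lower. With a fold change of at least 1.5 as well, 2 members were upregulated (ITGB3 and ITGA2B) and 2 were downregulated (FERMT3 and ITGA10), against 4.29% and 2.16% of all tested genes. With loess offsets, which centre the fold changes along the level of the genes, these counts were 1 and 3 for the members and 350 and 394 for all genes, in place of 581 and 293. The median log2 fold change was 1.82e-05 over the tested members and 0.00619 over all tested genes. The samples of the groups did not overlap in 21 of the 27 members, nor in 61.7% of all tested genes. In these bulk samples, fewer cells that carry a transcript and less of it per cell cannot be told apart. Without vehicle replicate 2, 1 member was called higher (ITGB3) and 2 were called lower (FERMT1 and FERMT3), and with a 1.5-fold change 1 was called in each direction. In the same fit, 866 of all genes were called higher and 676 lower, against 1712 and 1533 with all samples.

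**Figure D1:**
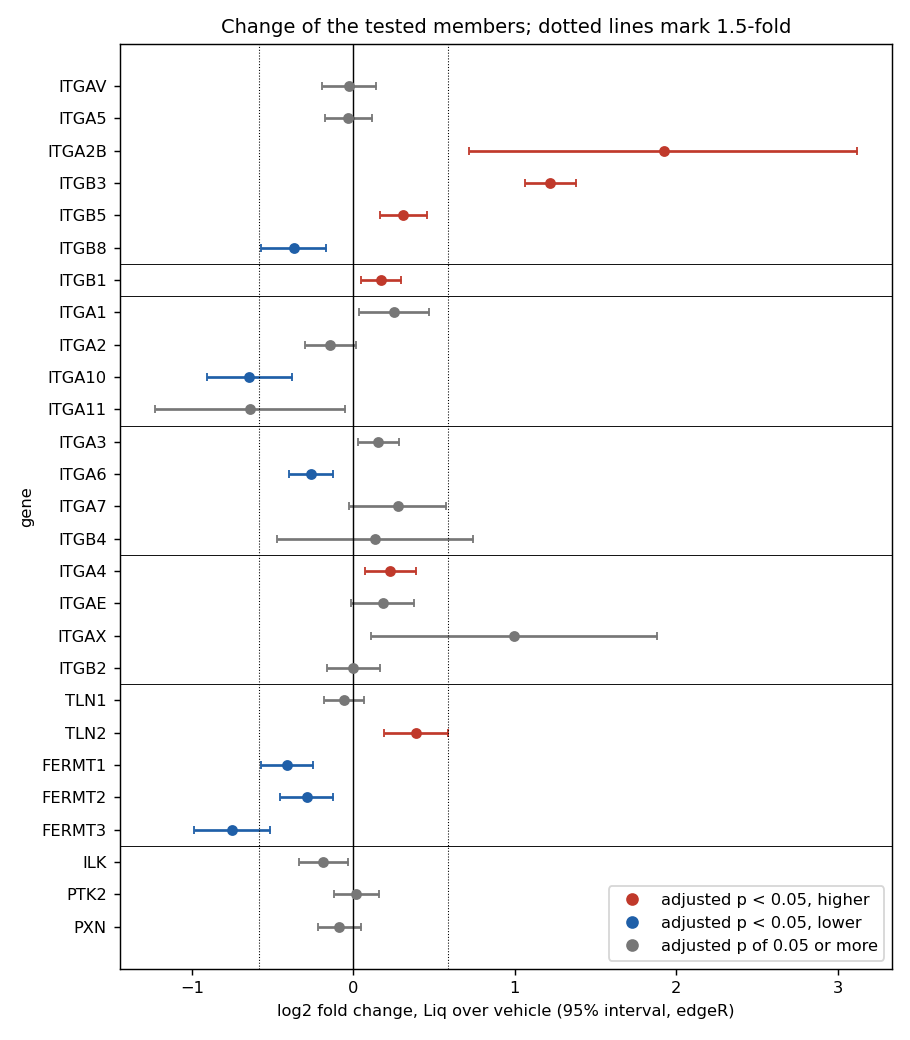
Log2 fold change of each of the 27 tested members, Liq over vehicle, with its 95% interval from edgeR (n = 2 per group). Members are grouped by role between the horizontal lines, dotted lines mark 1.5-fold, and ITGB3 and FERMT3 stand farthest from 0 with narrow intervals while ITGA2B has the widest.

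Per kilobase of exon, the talin gene TLN1 (mean 116 CPM per kb in vehicle) and the integrin genes ITGA3 (108), ITGA6 (95.2) and ITGB1 (78.4) had the highest vehicle levels of all members. PXN followed with 59.0 CPM per kb, ILK with 50.8 and ITGB5 with 34.1. These genes encode both chains of the α3β1 and α6β1 laminin receptors, the β5 chain of the αvβ5 vitronectin receptor and adaptors that tie integrins to actin. ITGAV, the αv chain, was at 4.56 CPM per kb. In Liq, ITGA3 had the highest level (120 CPM per kb) and ITGA6 was at 79.2. Exon lengths come from the GENCODE annotation of GRCh37, which holds more exons than the transcripts of any single cell type. Levels per kb, their order, and the shares and sums made from them are therefore approximate. The lengths used were 14.561 kb for ITGB1 and 19.336 kb for ITGAV, against 9.927 kb for TLN1 and 6.515 kb for ITGB5. In CPM, not divided by length, ITGB1 had a mean of 1141 in vehicle and 1284 in Liq, and TLN1 of 1151 and 1106.

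Of the 33 members, 6 did not pass the filter. ITGA9 had 0 counts in all 4 samples, which allows at most 0.0598 to 0.0843 CPM, a limit that covers counting error only. ITGA8, ITGAL and ITGAM had 1 count in a single sample each. ITGB7 had 3, 2, 3 and 1 counts in vehicle replicates 1 and 2 and Liq replicates 1 and 2. ITGB6, the epithelial partner of αv, had 2, 10, 4 and 1 counts in the same order, a spread within the groups as wide as that between them. ITGAL and ITGAM encode the leukocyte αL and αM chains, which pair with β2.

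Promoters are shown for the called members past 1.5-fold that have an entry in the RefSeq promoter table, to let their proximal sequences be compared. The table (GRCh38.p14) held 23 of the 33 members, and the unmatched ones were ITGB3, ITGA3, ITGA7, ITGB4, ITGA9, ITGAL, ITGAX, ITGB2, FERMT1 and PTK2. Each sequence is the 250 bases before the first listed start, 5′ to 3′ on the gene's strand, and was found at 1 place on its chromosome in GRCh37. These places are chr17:42467018-42467267 on the minus strand for ITGA2B, chr1:145524780-145525029 on the plus strand for ITGA10 and chr11:63973943-63974192 on the plus strand for FERMT3. The GENCODE annotation starts FERMT3 at 63973398, so the FERMT3 window lies inside that gene. It starts ITGA10 at 145524969, so the ITGA10 window runs past that start. FERMT3 had 2 listed starts, and only the first was used. Capitals mark matches to the AP-1 site TGANTCA, the antioxidant response element core TGACNNNGC, the GC box GGGCGG, the NF-κB site or the palindromic estrogen response element, on either strand.
ITGA2B: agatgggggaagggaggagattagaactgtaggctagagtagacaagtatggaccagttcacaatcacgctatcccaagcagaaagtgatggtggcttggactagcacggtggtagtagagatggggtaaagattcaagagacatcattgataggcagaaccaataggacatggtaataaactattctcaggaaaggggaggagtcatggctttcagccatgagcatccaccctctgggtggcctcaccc
ITGA10: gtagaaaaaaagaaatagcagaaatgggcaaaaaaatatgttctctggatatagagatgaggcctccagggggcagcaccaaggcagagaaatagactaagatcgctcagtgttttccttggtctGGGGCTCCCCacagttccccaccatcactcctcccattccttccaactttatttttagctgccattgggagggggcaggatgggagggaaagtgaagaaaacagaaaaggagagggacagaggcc
FERMT3: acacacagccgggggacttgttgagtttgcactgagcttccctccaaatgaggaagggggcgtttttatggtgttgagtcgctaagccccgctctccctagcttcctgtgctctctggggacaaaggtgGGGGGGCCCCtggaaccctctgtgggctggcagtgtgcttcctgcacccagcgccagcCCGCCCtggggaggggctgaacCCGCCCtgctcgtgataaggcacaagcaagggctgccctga
The ITGA10 window held 1 match to the NF-κB site, the FERMT3 window held 1 match to the NF-κB site and 2 to the GC box, and the ITGA2B window held no match. Over the 23 matched members, the NF-κB site was found in 7 windows, the GC box in 12 and the antioxidant response element core in 3 (ITGA1, ITGB1 and ITGB5), and neither the AP-1 site nor the palindromic estrogen response element was found. Of the 27305 promoters of the table cut in the same way, 9.57% held the NF-κB site, 42.3% the GC box, 11% the antioxidant response element core, 6.60% the AP-1 site and 0.0439% the estrogen response element. These are matches of letters, not measured binding.

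Among the integrin chains that bind the Arg-Gly-Asp motif of fibronectin, vitronectin and fibrinogen, ITGB3, ITGA2B and ITGB5 rose and ITGB8 fell. ITGB3 (chromosome 17 from 45331193 to 45391109, GRCh37, plus strand) encodes the β3 chain of the αvβ3 vitronectin receptor and of platelet αIIbβ3. It was at 47.3 and 46.5 CPM in vehicle and at 110 and 109 CPM in Liq. Both Liq samples were far above both vehicle samples, and the samples within a group were nearly equal. The log2 fold change was 1.22 (± 0.077 SE, edgeR adjusted p = 4.935e-12), a 2.33-fold increase, and it stayed between 1.20 and 1.25 under the 11 alternative settings. Leaving out any 1 of the 4 samples kept ITGB3 called.

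ITGB5 (chromosome 3 from 124480795 to 124620265, minus strand), the β5 chain of the second αv vitronectin receptor, rose by less. It was at 235 and 209 CPM in vehicle and at 280 and 269 CPM in Liq, without overlap, with a log2 fold change of 0.31 (± 0.071 SE, edgeR adjusted p = 0.002328). Without vehicle replicate 2 this was 0.23 (edgeR adjusted p = 0.1716). ITGB8 (chromosome 7 from 20370325 to 20455377, plus strand), whose αvβ8 receptor binds latent TGF-β, went the other way. It was at 27.3 and 28.1 CPM in vehicle and at 19.6 and 23.1 CPM in Liq, with a log2 fold change of -0.37 (± 0.098 SE, edgeR adjusted p = 0.007023). Without vehicle replicate 2 the adjusted p of ITGB8 was 0.08276 (edgeR).

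ITGAV, the αv chain shared by these receptors, was at 87.5 and 89.0 CPM in vehicle and at 79.5 and 93.2 CPM in Liq. The groups overlapped, and the 95% interval of its log2 fold change ran from -0.20 to 0.14. ITGA5, the α5 chain of the fibronectin receptor α5β1, was at 165 and 157 CPM in vehicle and at 160 and 155 CPM in Liq, with an interval from -0.18 to 0.11. Neither interval reached a 1.5-fold change.

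Per kilobase of exon, ITGB3 made up 15.5% and 16.7% of the summed β3, β5, β6 and β8 level in vehicle and 26.7% and 27.2% in Liq. ITGB5 made up 80.5% and 78.7% in vehicle and 71.2% and 70.2% in Liq. ITGB5 was the most abundant of these αv partners in all 4 samples, and the share of ITGB3 was larger in both Liq samples. The summed level of the 4 genes was 44.8 and 40.8 CPM per kb in vehicle and 60.4 and 58.8 CPM per kb in Liq. These shares describe RNA and were not tested.

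ITGA2B (chromosome 17 from 42449548 to 42467017, minus strand) encodes αIIb, the α chain that pairs with β3 on platelets. It had 6 and 2 counts in vehicle and 9 and 25 counts in Liq, or 0.146, 0.0534, 0.253 and 0.498 CPM. Both Liq samples were above both vehicle samples, but the Liq samples differed from each other by nearly as much as the groups did. The log2 fold change was 1.92 (± 0.59 SE, edgeR adjusted p = 0.01816). It was no longer called with loess offsets (1.63, adjusted p = 0.05915) or without vehicle replicate 2 (1.41, edgeR adjusted p = 0.2269). DESeq2 gave it no adjusted p, and it was not tested without Liq replicate 2, when it missed the filter. Of 5 platelet and megakaryocyte markers, PPBP, GP1BA and GP9 had 0 counts in all samples, and the summed level of the 5 was 0.0801 to 0.195 CPM in vehicle and 0.337 to 0.438 CPM in Liq, nearly all of it PF4. PF4 was not called (edgeR adjusted p = 0.0505), and the part of such cells in the ITGA2B result was not tested.

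**Figure D2:**
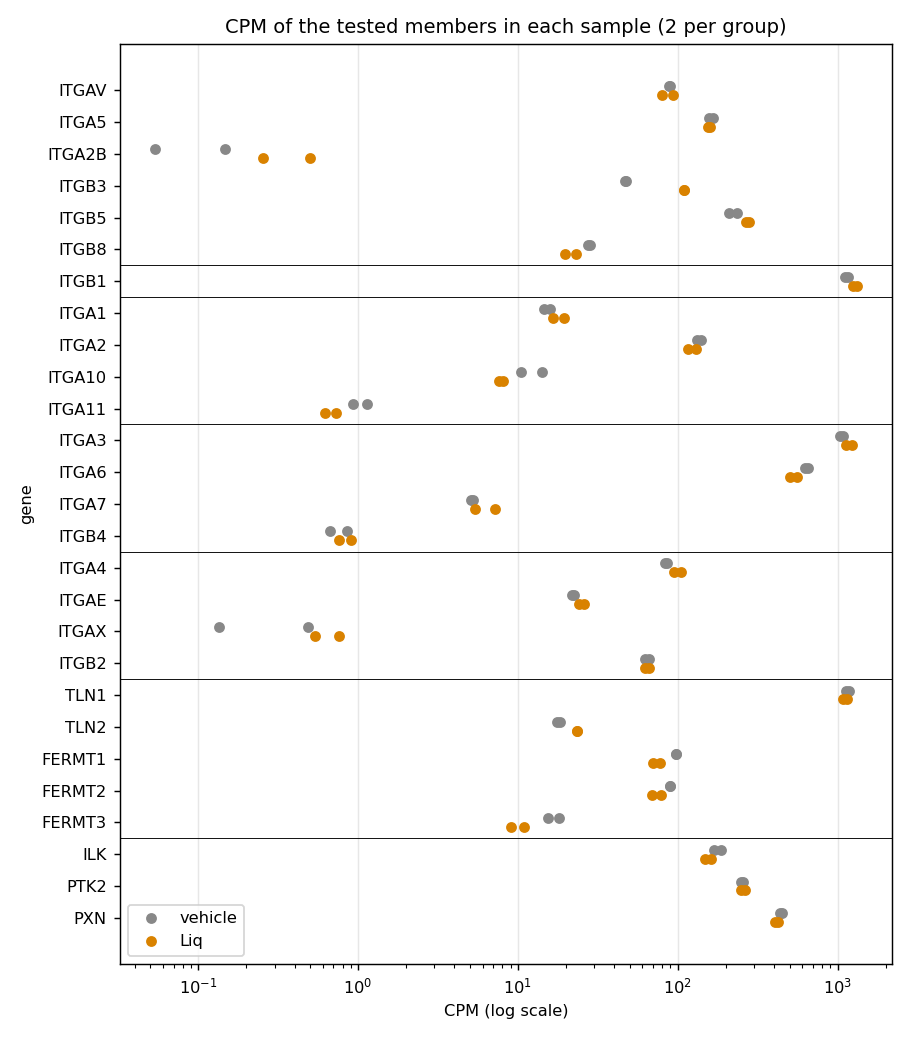
CPM of the 27 tested members in each of the 2 vehicle (grey) and 2 Liq (orange) samples, on a log axis, grouped by role between the horizontal lines. The ITGB3 samples separate most clearly between the groups, and the points of ITGA2B and ITGAX lie below 1 CPM and are spread within each group.

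ITGB1 (chromosome 10 from 33176201 to 33294720, minus strand), the β chain shared by the collagen, laminin and fibronectin receptors of most adherent cells, was at 1117 and 1165 CPM in vehicle and at 1239 and 1328 CPM in Liq. Both Liq samples were higher, with a log2 fold change of 0.17 (± 0.059 SE, edgeR adjusted p = 0.03809). This small increase was no longer called with the DESeq2 Wald test (adjusted p = 0.07663), nor in the edgeR fits without vehicle replicate 1 (adjusted p = 0.3257), vehicle replicate 2 (0.1047) or Liq replicate 2 (0.2276).

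Of the 4 α chains that pair with β1 to bind collagen, only ITGA10 passed the test. ITGA10 (chromosome 1 from 145524969 to 145543868, plus strand), the α10 chain best known from cartilage, was at 10.4 and 14.1 CPM in vehicle and at 7.56 and 8.05 CPM in Liq. Both Liq samples were below both vehicle samples, and the vehicle samples differed from each other more than the Liq samples did. Its log2 fold change was -0.64 (± 0.13 SE, edgeR adjusted p = 0.0005891), and without vehicle replicate 2 it was -0.41 (edgeR adjusted p = 0.0722). ITGA11, the α11 chain of fibroblasts, had a log2 fold change of similar size (-0.64, SE 0.29) at about 1 CPM and was called only with loess offsets (-0.87, edgeR adjusted p = 0.03139).

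ITGA2, the α2 chain of the main epithelial collagen receptor, was at 132 and 139 CPM in vehicle and at 115 and 130 CPM in Liq (log2 fold change -0.14, edgeR adjusted p = 0.1801). ITGA1, the α1 chain that binds collagen IV, was at 14.6 and 15.9 CPM in vehicle and at 16.6 and 19.5 CPM in Liq (log2 fold change 0.25, edgeR adjusted p = 0.08556). For neither gene did the samples of the groups overlap. Exons of PELO overlap ITGA1 on the same strand, and HTSeq drops reads that fall on both genes. ITGA2 was called without Liq replicate 2 (adjusted p = 0.01744) and ITGA1 without Liq replicate 1 (adjusted p = 0.009382). ITGA2 carried 84.6% to 87.3% of the summed per-kb level of the 4 collagen-binding chains in every sample.

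Among laminin receptors, ITGA6 fell. ITGA6 (chromosome 2 from 173292082 to 173371187, plus strand), the α6 chain of α6β1 and α6β4, was at 622 and 651 CPM in vehicle and at 500 and 559 CPM in Liq. Both Liq samples were lower, with a log2 fold change of -0.26 (± 0.066 SE, edgeR adjusted p = 0.004374). The adjusted p was 0.06087 with loess offsets and 0.09054 without vehicle replicate 2 (edgeR).

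ITGA3, the α3 chain of the laminin-332 receptor α3β1, was at 1082 and 1037 CPM in vehicle and at 1234 and 1127 CPM in Liq. Its log2 fold change of 0.16 (SE 0.061) did not pass the test (edgeR adjusted p = 0.06521), but it was called with upper-quartile scaling (0.18, adjusted p = 0.03622), with loess offsets (0.26, adjusted p = 0.002563) and without Liq replicate 2 (0.22, adjusted p = 0.01396). Of the summed per-kb level of ITGA3, ITGA6 and ITGA7, ITGA6 made up 45.7% and 47.8% in vehicle and 37.1% and 42.0% in Liq. The sum itself was 204 CPM per kb in both vehicle samples, and 202 and 199 CPM per kb in Liq. This sum depends on the annotated exon lengths, 9.802 kb for ITGA3 and 6.679 kb for ITGA6, and is approximate. ITGB4, the hemidesmosomal partner of α6, was below 1 CPM in every sample, and its 95% interval ran from -0.47 to 0.74. ITGA7, the muscle laminin receptor chain, had a log2 fold change of 0.27 (edgeR adjusted p = 0.1765) and was called without Liq replicate 2 (0.48, adjusted p = 0.01285).

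Among the leukocyte chains and the α4 and α9 chains, 4 of 8 passed the filter on low counts and ITGA4 passed the test. ITGA4 (chromosome 2 from 182321929 to 182403667, plus strand), the α4 chain that binds VCAM1 and fibronectin, was at 83.3 and 85.5 CPM in vehicle and at 94.1 and 104 CPM in Liq. The log2 fold change was 0.23 (± 0.077 SE, edgeR adjusted p = 0.03253), and the call was lost without vehicle replicate 1 (adjusted p = 0.3217), vehicle replicate 2 (0.2042) or Liq replicate 2 (0.1495). Exons of CERKL overlap ITGA4 on the other strand. Whether reads that fall on both genes were dropped depends on the strand setting of the counting, which is not given in the sources used here.

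ITGB2, the β2 chain of leukocytes, was at 66.1 and 62.0 CPM in vehicle and at 66.2 and 62.0 CPM in Liq, with a 95% interval of the log2 fold change from -0.17 to 0.17. This level came with ITGAL and ITGAM at 0 or 1 count, and with ITGAX, the αX chain, at 20, 5, 27 and 27 counts. ITGAX was not called (log2 fold change 0.99, SE 0.43, edgeR adjusted p = 0.09505), although it was called without vehicle replicate 1 (2.22, adjusted p = 0.01646) and without Liq replicate 2 (1.25, adjusted p = 0.04123). ITGAE, the αE chain that binds E-cadherin, was at 21.8 to 25.9 CPM (log2 fold change 0.18, edgeR adjusted p = 0.1677). The summed level of the 9 leukocyte markers was 68.3 to 74.9 CPM in vehicle and 66.7 to 78.0 CPM in Liq, and CD68, which was not called, made up nearly all of it. LYZ fell, from 23 and 15 counts in vehicle to 8 and 9 in Liq (log2 fold change -1.27, edgeR adjusted p = 0.0407).

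The clearest pattern among the adaptors was that of the kindlins, the FERM-domain proteins that bind the β tail beside talin. All 3 kindlin genes were downregulated by Liq. FERMT3 (chromosome 11 from 63973398 to 63991368, plus strand), kindlin-3, best known from blood cells, was at 18 and 15.4 CPM in vehicle and at 10.9 and 9.10 CPM in Liq. Its log2 fold change was -0.75 (± 0.11 SE, edgeR adjusted p = 2.288e-05), a 1.68-fold decrease. Exons of TRPT1 overlap FERMT3 on the other strand. TRPT1 was at 23.8 and 21.2 CPM in vehicle and at 26.4 and 23.2 CPM in Liq and was not called (edgeR adjusted p = 0.33976).

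FERMT1 (chromosome 20 from 6055492 to 6103861, minus strand), the epithelial kindlin-1, was at 97.8 and 98.1 CPM in vehicle and at 69.8 and 77.4 CPM in Liq. The vehicle samples were nearly equal and both Liq samples lay below them, with a log2 fold change of -0.41 (± 0.078 SE, edgeR adjusted p = 0.000335). FERMT2 (chromosome 14 from 53323986 to 53419153, minus strand), the widely expressed kindlin-2, was at 89.6 and 89.9 CPM in vehicle and at 68.7 and 78.2 CPM in Liq. Its log2 fold change was -0.29 (± 0.080 SE, edgeR adjusted p = 0.009618). FERMT1 and FERMT3 stayed called under the 11 alternative settings, whereas FERMT2 lost its call without vehicle replicate 1 (adjusted p = 0.1212), vehicle replicate 2 (0.118) or Liq replicate 1 (0.06248).

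The summed kindlin level per kb was 21.7 and 21.5 CPM per kb in vehicle and 15.9 and 17.6 CPM per kb in Liq. FERMT2 made up 48.8% to 52.6% of it, FERMT1 43.0% to 44.6% and FERMT3 4.45% to 7.14% across the 4 samples. These shares depend on the annotated exon lengths, 8.463 kb for FERMT2, 10.236 kb for FERMT1 and 11.636 kb for FERMT3, and are approximate. The Liq sums lay below the vehicle sums, and this difference of sums was not tested.

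The talins, which bind the β tail and pull on actin, did not follow the kindlins. TLN1 was at 1175 and 1127 CPM in vehicle and at 1137 and 1075 CPM in Liq, and the groups overlapped (95% interval of the log2 fold change from -0.18 to 0.064). TLN2 (chromosome 15 from 62682725 to 63136830, plus strand), the second talin, rose from 18.3 and 17.5 CPM in vehicle to 23.4 and 23.4 CPM in Liq. Its log2 fold change was 0.39 (± 0.096 SE, edgeR adjusted p = 0.004046), and the adjusted p without vehicle replicate 2 was 0.09258 (edgeR). TLN2 made up 0.938% to 1.32% of the summed talin level per kb in the 4 samples, so TLN1 supplied nearly all talin RNA.

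The remaining adaptors did not pass the test. ILK, the scaffold of the ILK-PINCH-parvin complex, was at 186 and 168 CPM in vehicle and at 162 and 149 CPM in Liq. Its log2 fold change was -0.19 (± 0.075 SE, edgeR adjusted p = 0.07073), and it was called without Liq replicate 1 (-0.25, adjusted p = 0.01027). Exons of TAF10 overlap ILK on the other strand. PTK2, which encodes FAK, was at 256 and 250 CPM in vehicle and at 248 and 263 CPM in Liq, with a 95% interval from -0.12 to 0.16. PXN, the paxillin gene, was at 447 and 434 CPM in vehicle and at 424 and 405 CPM in Liq, with an interval from -0.22 to 0.045.

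**Figure D3:**
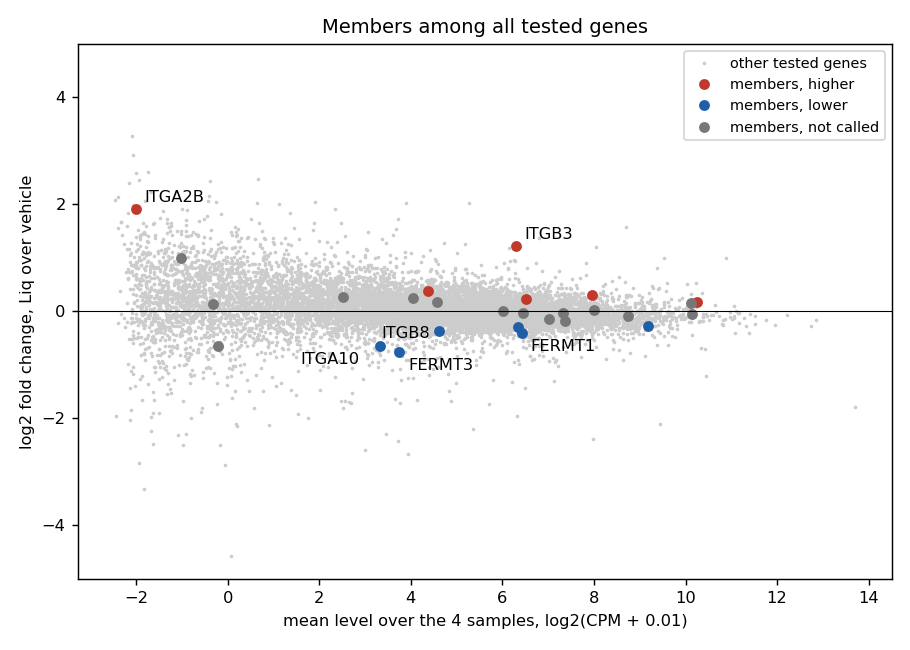
Log2 fold change of all 13546 tested genes (Liq over vehicle) against their mean level over the 4 samples, with the 27 tested members in color. ITGB3 lies above genes of like level, the called kindlins FERMT3 and FERMT1 lie below the line at 0, and ITGA2B lies among the lowest expressed genes.

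The other genes of focal adhesions were examined with a list of 47 actin linkers, ILK partners, signaling partners and integrin regulators. Of the 43 that passed the filter, 3 were upregulated and 10 were downregulated, or 6.98% and 23.3%, against 12.6% and 11.3% of all tested genes. The median log2 fold change was -0.079. The largest change was that of LPXN (leupaxin, a paxillin relative), which was at 199 and 195 CPM in vehicle and at 80.9 and 79.9 CPM in Liq, a log2 fold change of -1.29 (± 0.073 SE, edgeR adjusted p = 4.162e-13). KANK2, which binds talin at the rim of adhesions, had a log2 fold change of -0.61.

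The actin-linked genes ZYX (zyxin), ACTN1 (α-actinin) and TNS3 (tensin-3) had log2 fold changes of -0.38, -0.33 and -0.35, and the PINCH-binding RSU1 one of -0.35. Their adjusted p-values ran from 0.0002829 to 0.0008159 (edgeR). The upregulated genes of the list were TES, ENAH and PTK2B, and they were named because they are few. With loess offsets, 1485 of all tested genes were called higher and 1349 lower, against 1712 and 1533 in the main fit. In the list, 7 genes were then called higher and 11 lower. Without vehicle replicate 1 these counts were 1 and 5, and without Liq replicate 2 they were 6 and 11. Over all genes, the same fits called 805 higher and 608 lower without vehicle replicate 1, and 1966 and 1814 without Liq replicate 2.

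The integrin ligands changed in both directions. Of 44 listed matrix proteins and cell surface counter-receptors, 33 passed the filter. Of these, 13 were upregulated (39.4%) and 11 were downregulated (33.3%), against 12.6% and 11.3% of all tested genes. With a fold change of at least 1.5 as well, 2 ligands were upregulated and 8 were downregulated, against 4.29% and 2.16% of all tested genes. The median log2 fold change of the 33 ligands was 0.040. The matricellular ligand CTGF fell from 1954 and 1965 CPM to 843 and 844 CPM, a log2 fold change of -1.22 (± 0.057 SE, edgeR adjusted p = 1.169e-14). COL6A3, a collagen VI chain, had a log2 fold change of -0.84, and LAMA1, the laminin α1 chain, one of -1.92 at 4.26 to 4.86 CPM in vehicle. VCAM1, the counter-receptor of α4β1, and ICAM1, that of the β2 integrins, had log2 fold changes of -0.997 and -0.817, and TNC (tenascin-C) one of -0.61. EDIL3, a ligand of αvβ3, rose from 0.924 and 0.828 CPM to 2.16 and 2.75 CPM (log2 fold change 1.5, edgeR adjusted p = 2.796e-05). Without vehicle replicate 2, fewer ligands were called higher and the number called lower was unchanged. Fewer of all tested genes were called in that fit, in both directions.

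**Figure D4:**
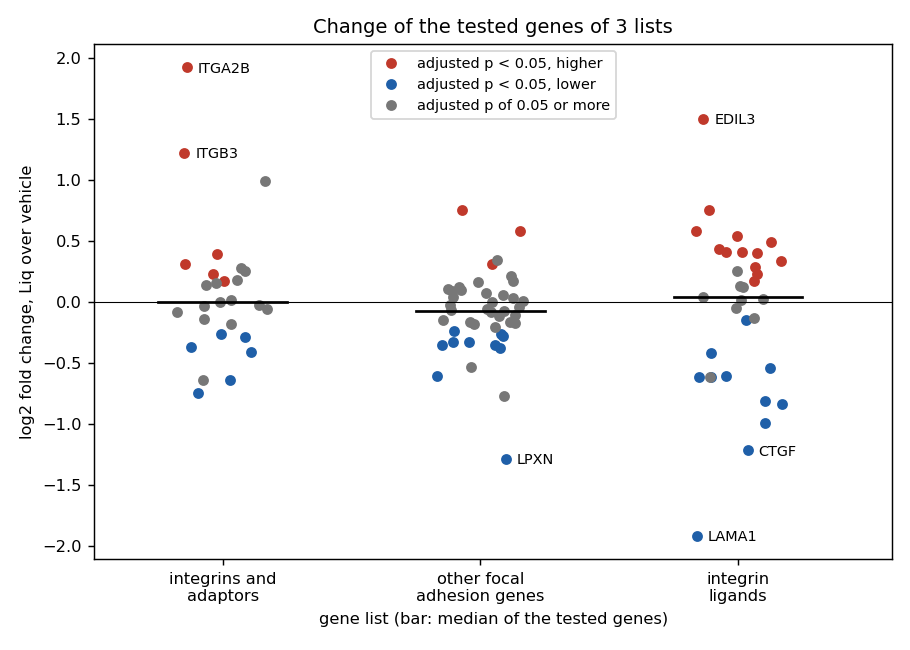
Log2 fold change (Liq over vehicle) of the tested genes of 3 lists, 27 integrins and adaptors, 43 other focal adhesion genes and 33 integrin ligands, with points spread sideways for display. Bars mark the medians of 1.82e-05, -0.079 and 0.040, and genes with a log2 fold change of at least 1.1 in size are named.

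**Figure D5:**
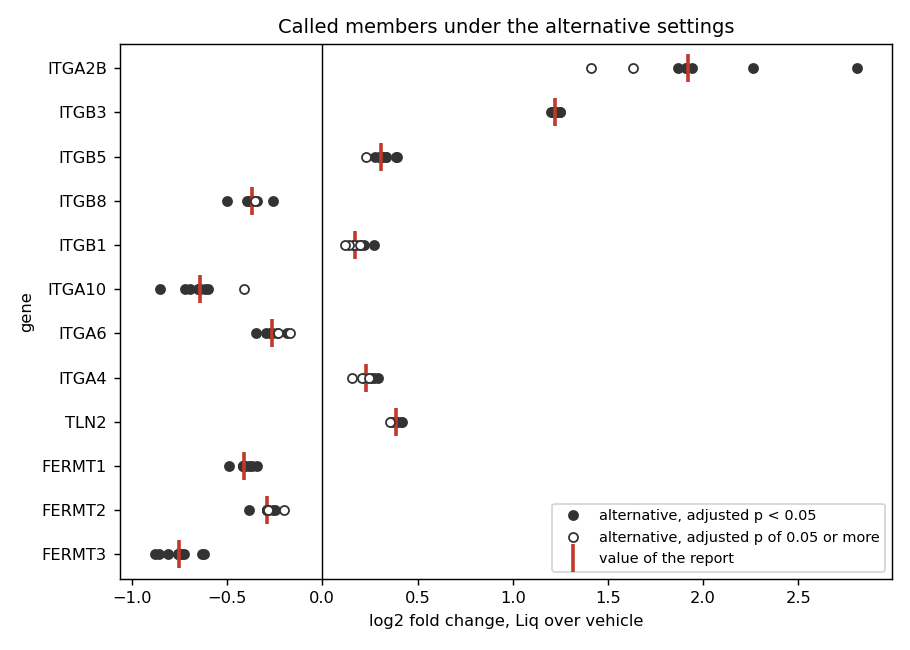
Log2 fold change of the 12 called members under the alternative settings (points, filled where the adjusted p is under 0.05 and open otherwise), with the value of the report as a red bar. All points of ITGB3, FERMT1 and FERMT3 are filled, and ITGA2B is spread most.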

How the data were processed

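RNA-seq counts of ES2 cells were analysed for 2 vehicle and 2 Liq samples. The authors aligned 100-base single-end reads to hg19 (GRCh37) with TopHat2 2.0.8b, after bcl2fastq 2.17.1.14, and counted them per gene with HTSeq, according to the submitters' processing notes. They deposited raw counts per gene. Reads with several alignments, or on several genes at once, are dropped by HTSeq, and the strand setting, which decides whether genes on opposite strands count as such, is not given in the sources used here. Exons of BLOC1S1 and METTL7B overlap ITGA7, and those of ZNF740 overlap ITGB7, on the other strand. The 5 tally lines of each table were left out, and 54.06% to 55.62% of tallied reads were counted on genes.

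Counts were fitted across all genes in R 4.3.3 with edgeR 4.0.16 (filterByExpr at 10 counts and a total of 15, TMM, glmQLFit and glmQLFTest, no replicate block). The SE is the log2 fold change divided by the square root of F. Alternatives were DESeq2's size factors, upper-quartile scaling, loess offsets (span 0.3), no filter, the Wald test of DESeq2 1.42.0, at least 10 counts in every sample, a replicate block and each sample left out in turn. The fits that keep every sample were tested on simulated data, in which only genes of higher counts were changed. The fits with a sample left out were not tested in this way. All members are accounted for, and from each other list the 6 genes of smallest p-value are named. EDIL3, which the plot of lists labels by its size of change, and TES, ENAH and PTK2B were named after their values were seen. Members and lists were chosen with earlier results of these data known. TNS2 was found under its older symbol TENC1. Lists were not tested as sets. The values of 1 epithelial marker are not reported here. With 2 samples against 2, an exact permutation test cannot give a p below 0.3333.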

Additional observations from a re-analysis of the deposited data

How the results depend on the processing

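The 11 alternatives kept the direction of the 12 called members wherever they gave an adjusted p, and ITGB3, FERMT1 and FERMT3 were called under each of them. ITGA2B had an adjusted p under 8 of them. The DESeq2 Wald test gave it none, so its value there was left out. It missed the filter with at least 10 counts in every sample and without Liq replicate 2. With 1 sample left out, the lone sample of a group is assumed to vary like the other group. The number of members called ranged from 1 to 7 higher and from 2 to 7 lower over these 4 fits, and with a 1.5-fold change from 1 to 3 higher and from 1 to 2 lower. Members called higher with a 1.5-fold change numbered 1 with loess offsets, with at least 10 counts in every sample and with the DESeq2 Wald test. Leaving out 1 sample, the other focal adhesion genes ranged from 1 to 6 called higher and from 5 to 11 lower, and the integrin ligands from 7 to 12 higher and from 10 to 11 lower. All tested genes ranged from 805 to 1966 higher and from 608 to 1814 lower. With a 1.5-fold change, they ranged from 423 to 695 higher and from 236 to 312 lower. The Wald test called 1093 of all genes higher, and with a 1.5-fold change 341, against 350 with loess offsets. Loess offsets called 7 other focal adhesion genes and 1485 of all genes higher.

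With the replicate block, 9 members were called higher and 8 lower, 8 and 16 other focal adhesion genes, and 2321 and 2474 of all genes. ITGA1, ITGA2, ITGA3, ITGAX and ILK were called in addition. The replicate numbers are not stated to mark a shared culture, and deviations of same-numbered samples had a correlation of 0.129 across 13546 genes, a single value from 2 pairs.

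Changes of sign occurred only in uncalled members with log2 fold changes near 0. With loess offsets these were ITGAV (0.013), ITGA5 (0.033), TLN1 (0.045), PXN (0.0015) and ITGB4 (-0.094). ITGB2 had -0.0043 with DESeq2's size factors, -0.0054 with no filter and -0.0042 with the Wald test. With 1 sample left out, the log2 fold change ranged from -0.15 to 0.079 for ITGAV, from -0.073 to 0.0071 for ITGA5, from -0.027 to 0.32 for ITGB4, from -0.049 to 0.047 for ITGB2 and from -0.027 to 0.058 for PTK2. The causes were not tested. Depth limits what can be said of ITGA2B, ITGAX, ITGA11, ITGB4 and the 6 untested members, which had fewer than 50 counts in every sample.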
